A study of Mus musculus with 9 samples.

Results

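Visceral endoderm is the absorptive epithelium that surrounds the early mouse embryo and forms from primitive endoderm. The 10 genes examined code for proteins that it secretes or that serve its uptake. They are Apoe, Apoc1, Apoa1 and Apob (apolipoproteins), Ttr, Rbp4 and Trf (carriers of thyroid hormone, retinol and iron), Amn and Cubn (the subunits of an endocytic receptor) and Afp (alpha-fetoprotein, a fetal serum protein). They were chosen by function, and with values of these arrays already known, namely a fall of Apoe and a rise of other endoderm genes in KO cells. For that reason the KO against wild-type values of the 10 genes are given as a description. Whether a gene passed the call threshold in that comparison is also stated, as description and not as support. Of the 10 genes, 9 had a probe among the 30170 probes of the deposited series table, which represent 19233 gene symbols. The tenth, Apoc1, had a probe only in the scan files, and it was fitted separately over all 55681 non-control probes.

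Transcripts were measured on 9 single-colour Agilent arrays, with 3 arrays for each of 3 lines of male mouse embryonic stem cells (mESCs) of the 129P2/OlaHsd strain, all grown in serum with LIF and without any inducing agent. Wild-type (WT) cells were the parental E14Tg2a line, which was derived from a blastocyst. Knockout (KO) cells were Ring1B-/-, with exon 3 of Rnf2, the gene for RING1B, deleted on both alleles. I53A cells were Ring1B I53A/I53A, in which both alleles of the same gene code for a protein that still joins Polycomb repressive complex 1 (PRC1) but no longer ubiquitinates histone H2A. The sources used here describe no second line of either mutant genotype for the arrays, so a difference between groups may belong to a line as well as to its mutation. The 3 arrays of a group are described as biological replicates, and whether they were cultured apart is not stated. The p-values reflect only how far these arrays vary, part of which may be technical.

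Visceral endoderm secretes serum proteins before the fetal liver takes over that task. Apolipoprotein B is packed with lipid into lipoproteins that carry nutrients to the embryo, and apolipoprotein E is a ligand for the receptors that take lipoproteins up. Transthyretin and retinol-binding protein travel together in serum, and cubilin, held at the membrane by amnionless, takes up apolipoprotein A-I, cobalamin bound to its carrier, and other ligands from the maternal side. Undifferentiated mESCs are the counterpart of the epiblast, and they can turn toward primitive endoderm when GATA factors are raised.

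Values are log2 signals after quantile normalisation, and a probe's level is compared only with the same probe in another group. A probe counts as well above background on an array where the scanner software flagged it so, and on these arrays the lowest signal so flagged was between 2.65 and 4.28. A gene was called when its adjusted p in limma was below 0.05 and its change was over 2-fold. The arrays had 45.4% to 57.4% of the tested probes well above background and 5 to 9 saturated spots, and none of these saturated spots belonged to the 10 genes. Of 9 measured embryonic stem cell markers, 8 were well above background on every WT array, 9 on every KO array and 7 on every I53A array. The Rnf2 probe read 8.35 ± 0.109 (SD, n = 3) in WT, 7.78 ± 0.385 in KO and 8.79 ± 0.273 in I53A cells and was not called (adjusted p = 0.288 for KO against WT, limma). The position of this probe in the transcript, inside exon 3 or outside it, is unknown here, and it is no check of the labels.

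Some sequences are shown for the genes whose values differed between lines. The array read Apoe and Amn through 60-base probes, neither of which holds a stop codon in any of the 3 forward frames. The 60-base Rbp4 probe, not printed, holds a stop codon in each of the 3 frames.
Apoe probe: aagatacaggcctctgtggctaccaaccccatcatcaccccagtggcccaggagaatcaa
Amn probe: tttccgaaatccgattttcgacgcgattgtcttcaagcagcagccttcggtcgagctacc
Because PRC1 in mESCs is known to gather at promoters rich in CG dinucleotides, the 250 bases before an annotated start are given for the gene that fell and both that rose, with each CG in capitals. They are read 5′ to 3′ on the strand of the gene, from RefSeq's GRCm38.p6 assembly.
Rbp4, chr19:38124812-38125061, minus strand: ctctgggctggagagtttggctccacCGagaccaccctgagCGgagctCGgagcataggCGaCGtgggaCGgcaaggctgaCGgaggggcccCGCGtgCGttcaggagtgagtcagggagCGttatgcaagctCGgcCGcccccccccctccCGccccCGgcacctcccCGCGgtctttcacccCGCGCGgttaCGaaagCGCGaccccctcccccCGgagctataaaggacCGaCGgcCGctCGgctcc
Amn, chr12:111270846-111271095, plus strand: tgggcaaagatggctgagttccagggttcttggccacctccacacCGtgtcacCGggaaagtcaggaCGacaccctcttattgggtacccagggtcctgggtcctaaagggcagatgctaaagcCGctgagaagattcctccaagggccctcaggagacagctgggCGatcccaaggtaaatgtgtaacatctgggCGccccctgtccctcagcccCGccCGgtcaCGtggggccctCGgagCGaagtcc
Apoe, chr7:19699189-19699438, minus strand: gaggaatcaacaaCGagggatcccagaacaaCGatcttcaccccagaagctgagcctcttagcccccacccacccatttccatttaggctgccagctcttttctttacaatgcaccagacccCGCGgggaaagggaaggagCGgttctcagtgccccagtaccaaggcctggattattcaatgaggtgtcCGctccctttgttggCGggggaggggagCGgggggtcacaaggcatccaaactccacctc
This Rbp4 window held 28 CG, more than 92.4% of the 32851 promoter windows of the same length, whose median was 6. A second annotated Rbp4 start, at 38125321, had 5 CG, and the printed window lies inside the gene as that longer form defines it. The Amn window held 11 CG, more than 64.4% of windows. The 3 Apoe starts with a window had 8 (the printed window), 9 and 10, more than 57.0%, 59.7% and 62.2% of windows. All 3 windows lie inside the gene as annotated, whose upstream end at 19701310 had no window. At the lower end, the Afp window had 1 CG and the Cubn window 2.

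Short motifs were searched in the windows of the 7 genes that had one outside chromosome 18. TATAAA, the letters of a TATA box, was looked for on the gene's strand. It occurs in 7.59% of all promoter windows. It was found in the windows of Apob and Afp, in that of the Apoe start at 19698621, which is not printed, and in the printed Rbp4 window, close to its end. AGATAA, a form of the GATA factor site, and AGGTCA, the letters that nuclear receptors bind as a repeat, were looked for on both strands and they occur in 9.99% and 14.02% of all windows. Neither was found in a window of the 7 genes, which says only that these letters are not in these windows.

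Apoe was lower in KO than in WT cells, whereas Rbp4 and Amn were higher. This gene lies at chr7:19696244-19701310 and was read by 10 spots per array, none of them saturated. Normalised Apoe signals were 15.11, 15.00 and 15.04 in the WT arrays, 13.18, 13.22 and 13.35 in the KO arrays, and 14.30, 14.45 and 14.18 in the I53A arrays. The groups did not overlap, with WT highest, KO lowest and I53A between them.

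KO cells had 3.48-fold less Apoe than WT cells, a log2 change of -1.80 (SE 0.197, n = 3 per group), and only 75 of the 30170 probes fell further. The log2 change stayed between -1.85 and -1.69 under 20 other ways of processing the arrays, and on the 6 arrays of slide 1 alone it was -1.77. Before normalisation the median of the unflagged Apoe spots was 32873.5 to 34878 fluorescence units on the WT arrays, 9616 to 11904 on the KO arrays and 21046 to 23417 on the I53A arrays. The order of the lines was therefore the same in the unscaled data. The 10 spots of one array varied by 0.131 to 0.645 (SD, log2).

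In I53A cells Apoe was 1.67-fold lower than in WT cells, with a log2 change of -0.74 (95% interval -1.18 to -0.30), and it was not called (adjusted p = 0.21, limma). Its adjusted p fell under 0.05 with one other background correction (0.00813), where the change was -0.82, still under 2-fold. KO against I53A, which shares the KO arrays with the contrast that chose the gene, gave -1.06 (95% interval -1.50 to -0.62), or 2.09-fold lower in KO cells (adjusted p = 0.0307, limma). That call was lost in 13 of 20 alternatives, among them the removal of any 1 of the 9 arrays, after which the change was -1.12 to -0.99 and the adjusted p 0.0565 to 0.118.

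**Figure D1:**
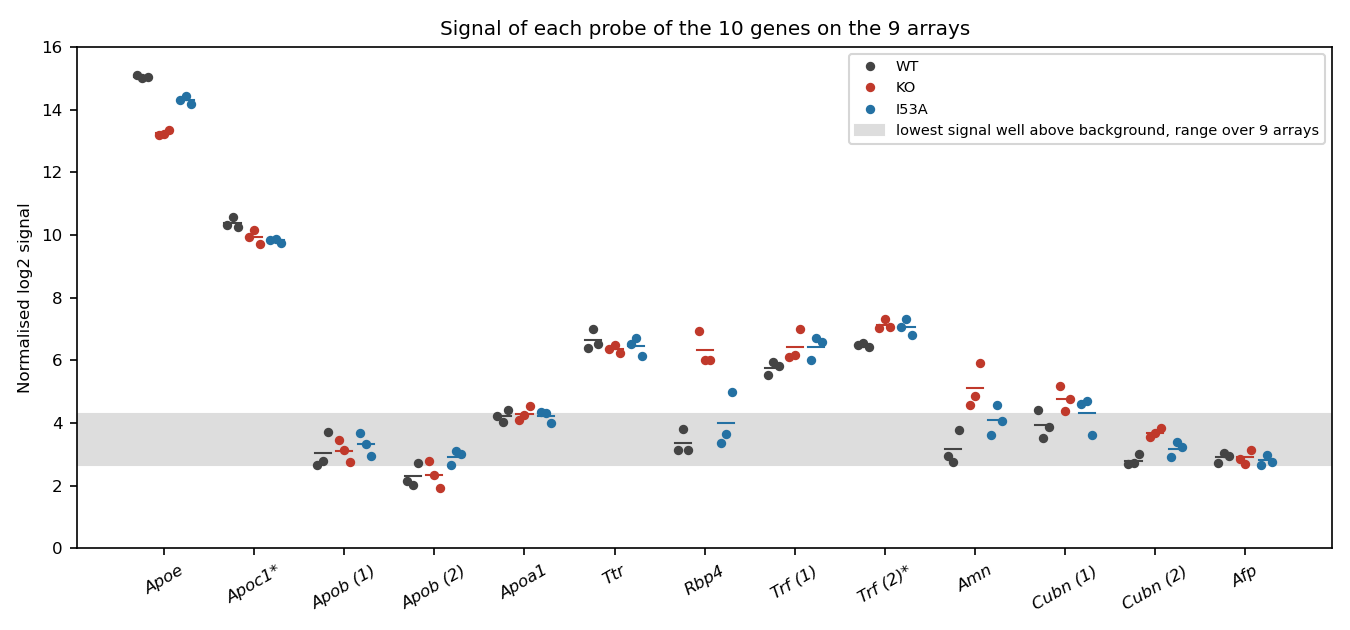
Normalised log2 signal (vertical axis) of every probe of the 10 genes on the 9 arrays, with a point per array, a short line at each group mean, and a grey band for the lowest signal well above background on the 9 arrays (2.65 to 4.28); an asterisk marks probes outside the series table. Apoe falls from 15.05 in WT to 13.25 in KO with I53A at 14.31, and Rbp4 lies above the band on all 3 KO arrays. Apoa1, Apob and Afp are well above background on no array, although some Apoa1 points lie above the band.

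Apoc1, a small apolipoprotein of the same cluster, is coded at chr7:19689480-19692659. Its signals were 10.31, 10.59 and 10.25 in WT, 9.92, 10.15 and 9.70 in KO, and 9.84, 9.88 and 9.76 in I53A arrays. Both mutant lines lay below WT without overlap, and they overlapped each other. The log2 change was -0.46 in KO (SE 0.226) and -0.56 in I53A cells (95% interval -1.06 to -0.06, adjusted p = 0.641, limma over 55681 probes), and KO against I53A was 0.10 (adjusted p = 0.964), so the gene was not called in any comparison.

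Apob, the structural protein of large lipoproteins, and Apoa1, the main protein of high-density lipoprotein, were not well above background on any of the 9 arrays. The Apoa1 signals ran from 4.01 to 4.55. Those of the brighter Apob probe ran from 2.66 to 3.72 and those of the other from 1.92 to 3.12. No level and no fold change can be read for either gene.

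Ttr, on chromosome 18, was well above background on all 9 arrays and was nearly level. Its signals were 6.41, 7.01 and 6.51 in WT, 6.35, 6.47 and 6.25 in KO, and 6.51, 6.70 and 6.12 in I53A arrays, so that the groups overlapped. The differences were -0.29 for KO against WT (95% interval -0.84 to 0.27) and -0.20 for I53A against WT (95% interval -0.75 to 0.35, adjusted p = 0.863, limma). These intervals include no 2-fold change in either direction.

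Rbp4, whose product carries retinol in serum and binds transthyretin there, had the largest measured rise of the set in KO cells. It lies at chr19:38116620-38125321. Its signals were 3.15, 3.81 and 3.15 in the WT arrays, 6.93, 6.01 and 6.01 in the KO arrays, and 3.36, 3.66 and 4.97 in the I53A arrays. It was well above background on 0 of 3 WT, 3 of 3 KO and 1 of 3 I53A arrays, and the KO arrays overlapped neither other group. For a fold against WT, the WT level was set per array by the lowest signal well above background or by the probe's own signal, whichever was higher. On this basis KO cells had 6.23-fold more Rbp4 signal than WT cells, from a measured log2 difference of 2.95 (SE 0.433). That fold is not a lower bound, because the lowest flagged signal is a lenient limit. On WT replicate 1 it was 3.20, while Apoa1 at 4.24 was not well above background. With normexp background correction, which adds an offset of 50 to each spot, the measured difference was 1.12.

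In I53A cells the Rbp4 difference from WT was 0.63 (95% interval -0.33 to 1.59, adjusted p = 0.712, limma), and the groups overlapped, with I53A replicate 3 standing apart at 4.97. KO exceeded I53A by 2.32 on the log2 scale (95% interval 1.36 to 3.28, adjusted p = 0.0308, limma). With each dim I53A array set to its lowest signal above background, KO had 4.51-fold more, which again is not a lower bound. With normexp in place of the scanner's background correction that difference was 0.87 (adjusted p = 0.187), and the call was lost without any of 7 single arrays (WT replicates 1 and 3, each KO replicate, I53A replicates 1 and 2; 2.00 to 2.47). Without WT replicate 2 or I53A replicate 3 it was kept, at 2.32 and 2.81.

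Trf codes for transferrin, the iron carrier of serum. Its series-table probe read 5.53, 5.94 and 5.83 in WT, 6.102, 6.16 and 6.98 in KO, and 6.01, 6.72 and 6.57 in I53A arrays. Each mutant array lay above each WT array, and the mutants overlapped each other. The difference from WT was 0.65 in KO (SE 0.301) and 0.67 in I53A cells (95% interval -0.0023 to 1.33, adjusted p = 0.547, limma). A second Trf probe, outside the series table, gave 0.65 and 0.59 (adjusted p = 0.62 for I53A against WT, limma). Neither probe was called.

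**Figure D2:**
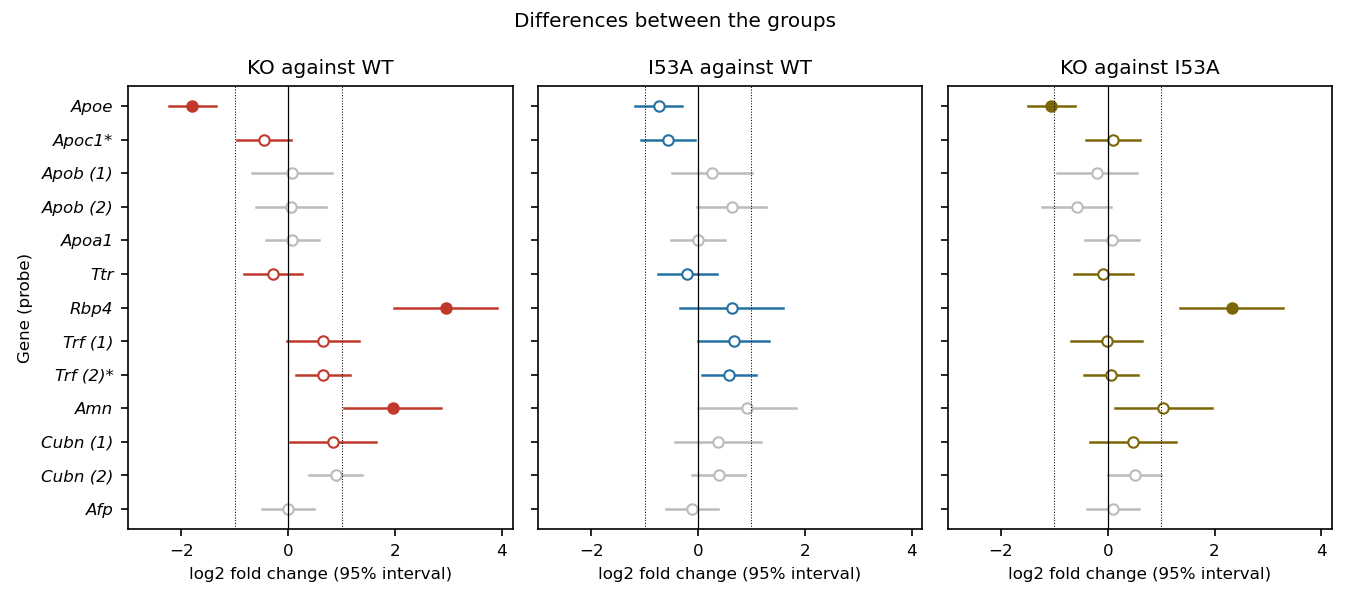
Log2 fold change (horizontal axis) with its 95% interval for each probe in the 3 comparisons; filled points are called, grey points are at background in both groups, and dotted lines mark a 2-fold change. Apoe (-1.80) and Rbp4 (2.95) lie on opposite sides in KO against WT, and no point is filled in I53A against WT.

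The receptor subunits lay near background in every line. Amn, at chr12:111271096-111276426, codes for amnionless, which brings cubilin to the cell surface. Its signals were 2.95, 2.77 and 3.79 in WT, 4.58, 4.85 and 5.93 in KO, and 3.62, 4.57 and 4.06 in I53A arrays. Every KO array was above every WT and I53A array, but only 1 KO array, and no array of the other lines, was well above background. The measured difference between KO and WT was 1.95 (SE 0.411), and since 2 of the 3 KO values were themselves not well above background no fold is given. KO against I53A differed by 1.04 (95% interval 0.13 to 1.95, adjusted p = 0.352, limma). I53A and WT overlapped, both at background. The KO against WT call was lost with normexp (0.47), on slide 1 alone (2.53), with only these 2 groups in the fit (1.95), and without WT replicate 1 (1.84), WT replicate 2 (1.75), KO replicate 2 (2.09) or KO replicate 3 (1.55).

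Cubn codes for cubilin, the large ligand-binding subunit, and both of its probes were dim. The brighter probe read 4.41, 3.51 and 3.87 in WT, 5.19, 4.37 and 4.77 in KO, and 4.61, 4.71 and 3.61 in I53A arrays, with 1 KO array well above background. WT and KO overlapped by a narrow margin on this probe. The other probe ran from 2.69 to 3.00 in WT, 3.54 to 3.84 in KO and 2.92 to 3.41 in I53A arrays, with no array well above background. KO against WT was 0.84 on the brighter probe and 0.89 on the other, I53A against WT was 0.38 and 0.39, and none of these was called.

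Afp, the fetal counterpart of albumin and a classic product of visceral endoderm, was at background on all 9 arrays. Its signals, averaged from 10 spots per array, lay between 2.66 and 3.14. Albumin itself (Alb, 4.21 in WT and 4.12 in KO) was at background too. Of the 9 genes with a series-table probe, 3 (Apoe, Ttr and Trf) were thus well above background on all 9 arrays and 3 (Afp, Apoa1 and Apob) on none. The name visceral endoderm is used here for the known function of the 10 genes and not for the cells.

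Across the set, KO against WT called 2 of the 9 genes higher (Rbp4 and Amn) and 1 lower (Apoe), where 2.73% of all tested probes were called higher and 1.11% lower, 3.84% in all. The contrast chose the genes, and nothing is read from that count. In I53A against WT 0 of 9 were called, where 0.328% of probes were called (0.235% higher and 0.0928% lower, limma), and at an unadjusted p below 0.05 there was 1 of 9 (Apoe), beside 9.20% of all tested probes. With the replicate number as a block, the probes called in I53A against WT were 25 in place of 99, and still 0 of the 9 genes. KO against I53A called Rbp4 higher and Apoe lower, where 0.958% and 0.368% of probes were, 1.33% in all. The median log2 change of the 9 genes was 0.07 in KO against WT, 0.27 in I53A against WT and 0.08 in KO against I53A, beside -0.015, -0.0046 and -0.011 over all measured genes. Each of these 3 medians is the value of a gene at background (Apoa1, Apob and Apoa1), and nothing is read from them. The extracts are bulk RNA, in which fewer cells of a type and less RNA per cell cannot be told apart, and the same holds for more cells and more RNA.

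The neighbours of Apoe were followed because the apolipoprotein cluster holds several genes in a short interval. RefSeq lists 15 genes within 100 kb, counting Apoe, of which 10 had a tested probe. None of the other 9 was called in any of the 3 comparisons. Tomm40, which codes for a mitochondrial import channel and lies 3 bases from Apoe, changed by -0.57 in KO (adjusted p = 0.355, limma) and by -0.24 in I53A cells (adjusted p = 0.862). Apoc2, the activator of lipoprotein lipase, was nearly level at -0.12 in KO and 0.01 in I53A cells, and Apoc4 was at background.

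Bcam, a laminin-binding adhesion molecule 54.8 kb away, was the neighbour that came closest to the threshold. It differed by -1.09 in KO against WT (adjusted p = 0.0573, limma) and by -1.30 in KO against I53A (adjusted p = 0.0535), while I53A against WT was 0.22 (adjusted p = 0.865). The remaining neighbours had log2 differences between -0.49 and 0.30 in KO against WT. Of the 10 genes with a tested probe here, Apoe alone passed the threshold. The other 5 had no probe in the series table. Apoc1 is among these 5 and was read by a probe outside that table. Both mutant lines lay below WT on it (-0.46 in KO and -0.56 in I53A cells), and it was not called.

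**Figure D3:**
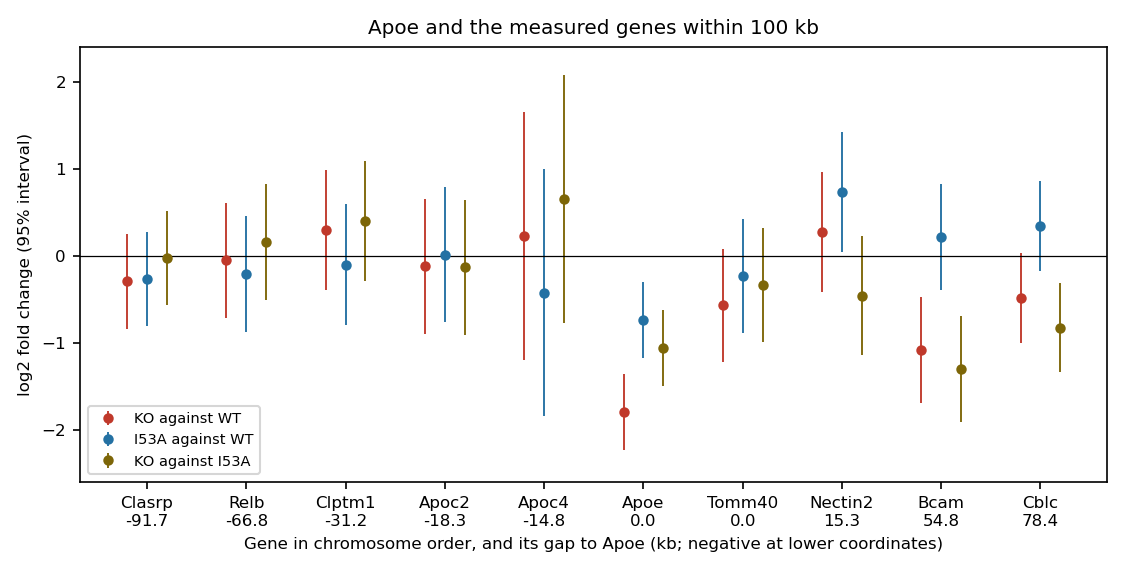
Log2 fold change with its 95% interval (vertical axis) for Apoe and the 9 other genes within 100 kb with a tested probe, in chromosome order with the gap to Apoe in kb (horizontal axis), for the 3 comparisons. Apoe is lowest in KO against WT (-1.80), Bcam reaches -1.09, and the other genes lie nearer to 0.

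The 9-array profile of Apoe was compared with that of 9040 genes well above background on all arrays, each centred on its own mean, by the root mean square of the differences. The median gene differed by 0.787. The 5 most alike were Klf3, a Kruppel-like repressor (0.111), Cldn4, a tight junction protein (0.121), Schip1, a schwannomin-interacting protein (0.172), Spred1, an inhibitor of Ras signalling (0.182), and Cxxc5, a CXXC zinc finger protein (0.191). These were selected for following Apoe, and their values are a description. Klf3 read 8.39, 8.41 and 8.44 in WT, 6.51, 6.82 and 6.83 in KO, and 7.70, 7.81 and 7.81 in I53A arrays, and thus had the same order of lines as Apoe. In KO against WT the 5 fell by log2 changes of -1.98 to -1.58, and in I53A against WT the changes were -0.85 to -0.62.

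Lists of related genes, chosen by function with earlier values known, were counted in the same way. Their KO against WT changes, calls and adjusted p are therefore a description, as for the 10 genes. Over genes, 4.37% were called between KO and WT, 0.432% between I53A and WT, and 1.55% between the mutants. In I53A against WT, none of the genes of these lists was called. Among 11 other apolipoproteins, 2 rose and none fell in KO against WT. The list median was -0.01, the value of a gene at background. Over the 6 genes not at background in both lines it was 0.32. Apod, a lipocalin that binds small lipids, rose from 7.85 to 9.59 (log2 change 1.74, adjusted p = 0.00198, limma) and was also above I53A (1.53, adjusted p = 0.00894). Clu, the secreted chaperone clusterin, rose by 1.31 (adjusted p = 0.0331), and in I53A cells its change was 1.37 without passing the test (adjusted p = 0.105).

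Of 23 genes of lipoprotein assembly, uptake and lipid control, 3 rose and 2 fell in KO against WT. The list median was 0.08, again the value of a gene at background. Over the 17 genes not at background in both lines it was 0.09. Lrpap1, the chaperone of lipoprotein receptors, rose by 1.69 (adjusted p = 0.00374, limma), and Lpl, lipoprotein lipase, by 1.63 (adjusted p = 0.00319). Pltp, which transfers phospholipid between lipoproteins, fell by 1.33 (adjusted p = 0.0296), and Abcg1, a lipid exporter, was called lower while at background in both lines. Mttp, the transfer protein that loads lipid onto apolipoprotein B, was at background, and the liver X receptor Nr1h3, known to raise Apoe in macrophages, differed by -0.71 (adjusted p = 0.211).

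Among 11 receptors and partners of the cobalamin, retinol and iron carriers, none was called in any of the 3 comparisons. Lrp2 (megalin), the partner of cubilin in uptake, differed by -0.54 in KO against WT (adjusted p = 0.716, limma), and its adaptor Dab2 was at background. Stra6, the receptor of retinol-binding protein, was at background, and Tfrc, the transferrin receptor, differed by 0.10 (adjusted p = 0.88). Of 16 other plasma proteins measured, 1 rose in KO cells, namely Fetub, a fetuin, by 1.54 (adjusted p = 0.0092). The median of that list was -0.07, and -0.22 over the 8 genes not at background in both lines.

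Regulators of endoderm were read beside these genes. A rise of endoderm genes in KO cells was known when the lists were chosen, so nothing is concluded from their KO against WT calls. Of 18 regulators, 4 rose and none fell in KO against WT. The list median was 1.00, genes at background included, and 1.23 over the 12 genes not at background in both lines. Gata6, an early driver of primitive endoderm, rose from 4.78 to 6.88 (2.09, adjusted p = 0.00651, limma) and exceeded I53A by 1.85 (adjusted p = 0.0273). Not every array in either comparison was well above background for Gata6. Gata4 and Sox17, which follow it, were at background in WT and were called higher in KO (adjusted p = 0.00651 and 0.00899). Their KO means were only 4.53 and 4.79, so no fold is given. Fst, an activin antagonist, rose by 1.38 (adjusted p = 0.0433). Hnf4a, the nuclear receptor that drives apolipoprotein genes in visceral endoderm and liver, was well above background and differed by -0.83 in KO (adjusted p = 0.203) and by -0.55 in I53A cells (adjusted p = 0.658).

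Of 9 genes of the basement membrane, 2 rose and none fell in KO against WT. Col4a1, a collagen IV chain, rose from 5.84 to 8.46 (2.62, adjusted p = 0.000654, limma), and Sparc, a collagen-binding glycoprotein, rose by 1.16 (adjusted p = 0.0394). Lama1, a laminin chain, was higher in KO than in I53A cells (2.14, adjusted p = 0.0181). The list median was 0.49. Over all 6 lists the number of genes called in KO against WT was 14, and it ranged from 5 to 16 under the alternatives.

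**Figure D4:**
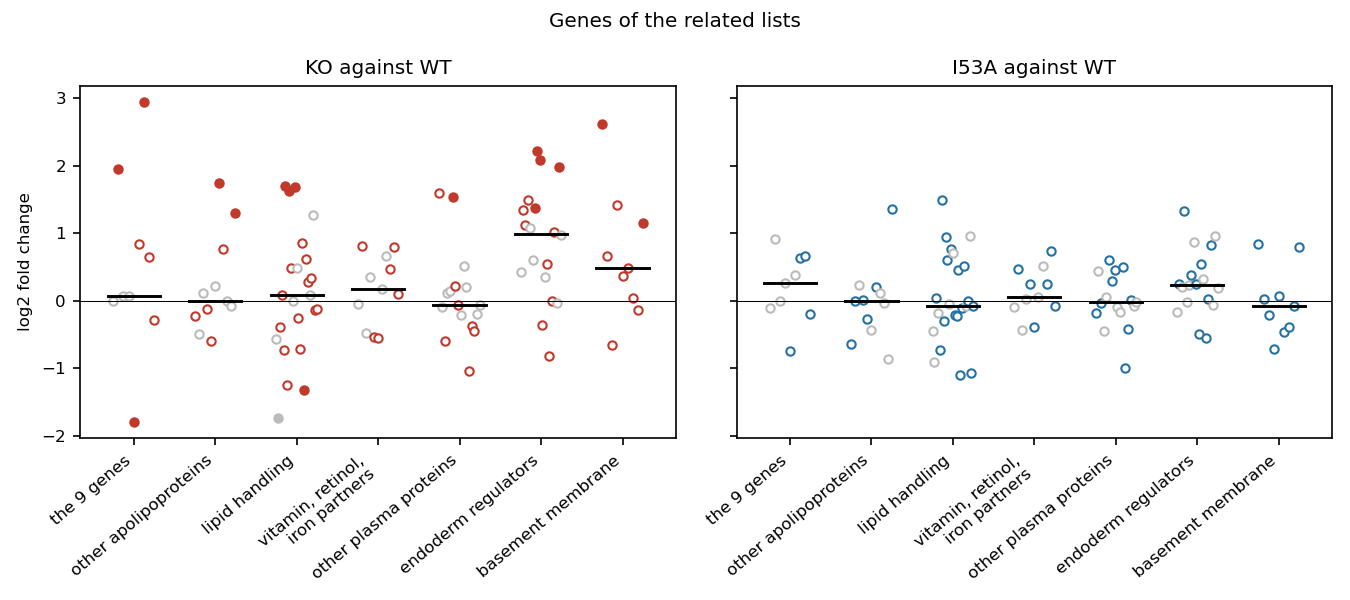
Log2 fold change (vertical axis) of each gene of the 9 and of the 6 related lists (horizontal axis) in KO against WT and in I53A against WT; filled points are called, grey points are at background in both groups, and bars are list medians. The medians include genes at background. The endoderm regulators have the highest median in KO against WT (1.00), and no point is filled in I53A against WT.

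Markers of other cell types moved in part with these genes. The summed linear signal of 7 parietal endoderm markers was 2061 to 3086 on the WT arrays, 5089 to 6499 on the KO arrays and 3750 to 4625 on the I53A arrays, and Thbd stayed at background in all lines. Most of that sum was Sparc, with 1580 to 2549 in WT, 3686 to 5418 in KO and 3379 to 4261 in I53A. Without Sparc, the other 6 summed to 357 to 537 in WT, 743 to 1403 in KO and 365 to 426 in I53A, so that KO remained above both. Of the 7, 3 were called higher in KO against WT (Sparc, Fst and Snai1), of which Sparc and Fst also stand in the lists above. The sum of 8 trophoblast markers was 821 to 861 in WT, 903 to 1092 in KO and 1010 to 1093 in I53A, with 2 called higher in KO (Eomes and Ascl2) and Elf5 at background. The sum of 8 macrophage markers was 338 to 356 in WT, 334 to 357 in KO and 321 to 390 in I53A, with none called. That of 10 fibroblast markers was 2364 to 3243 in WT, 1740 to 2460 in KO and 2371 to 2910 in I53A. Pdgfrb, Lum and Postn were at background in every line, and Thy1 was called higher in KO against WT, opposite to the sum. The sum of 9 stem cell markers was 32999 to 49286 in WT, 51530 to 54530 in KO and 29746 to 47184 in I53A. Among them, Sox2 fell by 1.03 and Tbx3 rose by 1.84 in KO against WT. The part of any other cell type in the differences of the 10 genes was not tested.

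**Figure D5:**
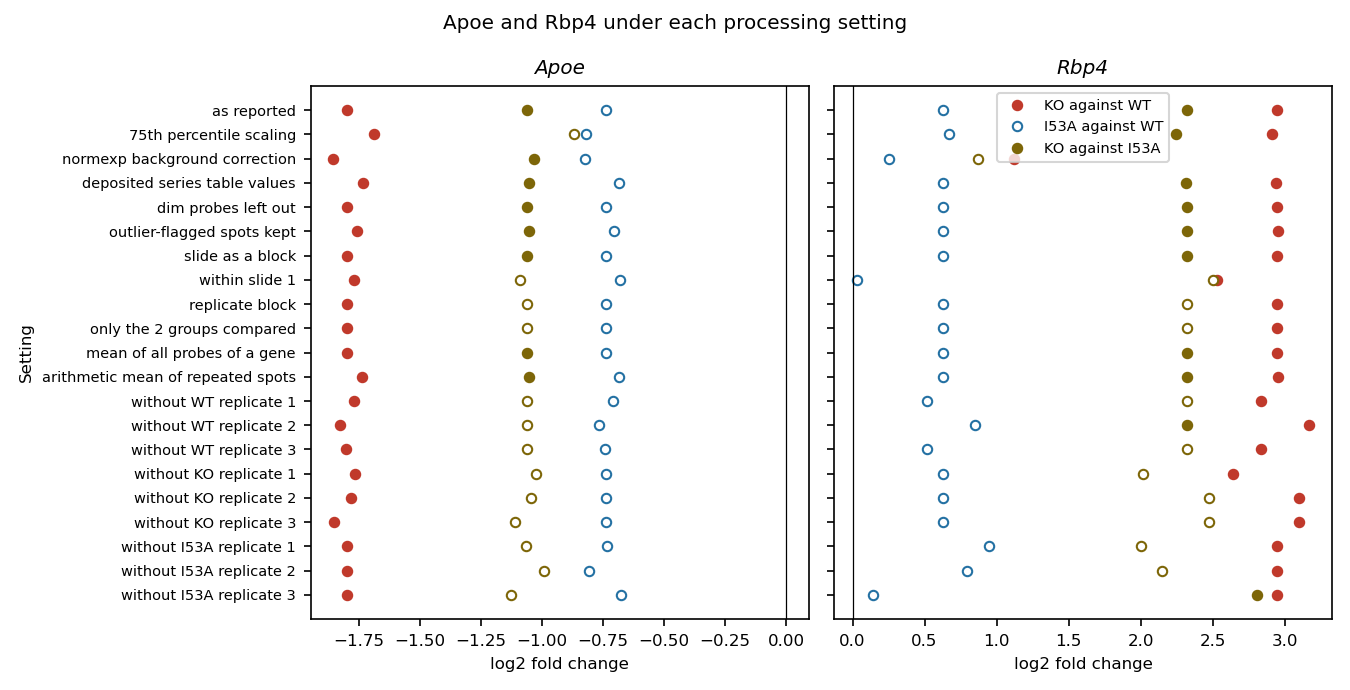
Log2 fold change (horizontal axis) of Apoe and of Rbp4 in the 3 comparisons under the reported setting and 20 alternatives (vertical axis); filled points are called. Apoe in KO against WT stays between -1.85 and -1.69 in all of them, and KO against I53A, at -1.06 as reported, is open in 13 of 20 alternatives.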

How the data were processed

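RNA from 9 mESC samples was labelled with Cy3 and hybridised by the authors, 1 array each, and scanned spots were read with Agilent Feature Extraction 11.5.1.1. The deposited scan files hold processed fluorescence intensities on a linear scale, with background already subtracted by that software. The deposited series table holds the authors' log2 values, quantile normalised with repeated spots averaged, for 30170 probes, and also their own fold changes, p-values and adjusted p-values against WT, which were not used. Columns of that table could be assigned to a group but not to an array.

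Processed intensities were turned into log2, outlier-flagged and control spots were left out, repeated spots were averaged, and 55681 probes were quantile normalised. limma 3.58.1 (R 4.3.3) fitted 1 mean per group over the 30170 probes, with eBayes moderation and Benjamini-Hochberg adjustment over all of them, and the call thresholds (adjusted p below 0.05, over 2-fold) follow the study's methods. The number of arrays limits the precision. Group and replicate number come from sample titles, although another label numbers all 3 KO samples 1. Deviations of same-numbered arrays from their group means correlated at 0.38, 0.11 and 0.23 for WT with I53A, where each pair also shares a slide. They correlated at -0.20 to -0.0082 for WT with KO and at -0.39 to 0.11 for KO with I53A. The numbers were thus taken to pair the arrays in I53A against WT alone. The reported fit leaves this pairing out, and the replicate block, run as an alternative, brings it in. With that block Apoe in I53A against WT stayed at -0.74 and was not called (adjusted p = 0.36, limma). Gene names came from RefSeq (GRCm38.p6), which named 26876 of the probes, and for a gene with several probes the brightest was used. The genes named are the 10 members, tested genes within 100 kb of Apoe, the 5 genes most like it, Rnf2 and up to 4 called genes per list and comparison; other names were added after values were seen. One gene counted in a list is not reported here by name. The members and lists were chosen with earlier results of these data known. Alternatives were 75th percentile scaling, normexp (offset 50, on median spot and background signals), the series table, removal of dim probes, outlier spots kept, slide as block, slide 1 alone, a replicate block, 2-group fits, means over probes of a gene and removal of each array; an arithmetic mean of repeated spots and the fit over all probes were chosen after seeing the data.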

Additional observations from a re-analysis of the deposited data

Results flagged for a closer look

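The changes of Apoe and Rbp4 against WT differed between the KO and I53A lines, as measured by KO against I53A with limma over all tested probes. For Apoe this difference was -1.06 on the log2 scale (adjusted p = 0.0307), with each of the 3 KO arrays below each I53A array, and the change against WT was -1.80 in KO and -0.74 in I53A cells. For Rbp4 it was 2.32 (adjusted p = 0.0308), with each of the 3 KO arrays above each I53A array, against changes from WT of 2.95 and 0.63. Both genes were chosen with the KO values known, so neither difference is independent of that choice. Both calls were lost under many of the alternatives, 13 of 20 for Apoe and 11 of 20 for Rbp4. Groups of 3 arrays are too small to test a single array as an outlier.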

How the results depend on the processing

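The KO against WT changes, given as a description, ran from -1.85 to -1.69 for Apoe and from 1.12 to 3.17 for Rbp4 over the 20 alternatives run, and Apoe in I53A against WT was not called under any of the 20. Apoe in KO against I53A kept its direction throughout and lost its call with 75th percentile scaling (-0.87), on slide 1 alone (-1.09), in the 2-group fit (-1.06) and when any 1 array was left out (-1.12 to -0.99). Same-numbered arrays of WT and I53A deviated together, but each such pair also shares a slide. KO replicate 2 and I53A replicate 1, on the same slide under different numbers, correlated at 0.43. Replicate number was thus not separated from slide, and same-numbered KO arrays showed no steady correlation with either group. With a replicate block the KO against I53A value of Apoe was the same -1.06 (adjusted p = 0.0895, limma) and that of Rbp4 2.32 (adjusted p = 0.0976, limma). In that fit 3 members were called in KO against WT, again a description, and 0 in I53A against WT. The block also groups KO arrays by numbers that were not taken to pair them, so its KO results do not rest on a known pairing. The number of members called in KO against I53A was 2, but 1 with 75th percentile scaling or normexp, 0 on slide 1 alone, with the replicate block and in the 2-group fit, and 0 to 1 with 1 array left out. The number of list genes called in KO against WT was 14, but 6 with normexp, 5 on slide 1 alone and 8 to 13 with 1 array left out. In KO against I53A it was 4, but 0 on slide 1 alone, 1 with the replicate block and 1 to 4 with 1 array left out, and in I53A against WT it was 0, but 1 with dim probes removed. The median change of the members in I53A against WT was 0.27, and 0.042 with normexp. In KO against WT it was 0.07, and 0.056 to 0.40 with 1 array left out (0.40 without WT replicate 3), but -0.015 with 75th percentile scaling. In KO against I53A it was 0.08, with -0.021 to 0.14 with 1 array left out and -0.017 to 0.079 under the other alternatives. The sign of these 2 medians thus depended on the setting. Among single member genes not at background in both groups, signs turned only for small KO against I53A differences that were never called. These were Ttr (0.041 without I53A replicate 2, and -0.25 to 0.041 over all arrays left out), Cubn (-0.085 on slide 1) and Trf (0.21 on slide 1, 0.14 without KO replicate 1, 0.11 without KO replicate 2, 0.12 without I53A replicate 2 and 0.051 without I53A replicate 3, and -0.30 to 0.14 over all arrays left out). The causes were not tested, except that slide 1 holds 2 arrays per group and leaving out an array leaves 2. Signal over background limits Apoa1, Apob and Afp, which could not be read, and Amn, Cubn and Rbp4, which were dim in most groups.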
